A study of Mus musculus with 12 samples.

Results

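The genes described here are the solute carriers that RAW264.7 cells, a mouse macrophage line, expressed at a level the arrays could detect. They were taken from the array's own gene names, as those that begin with Slc, a family number, the letter a and a member number. Of 339 such names, 6 were left out by the rule (Slc27a1, Slc27a4, Slc25a20, Slc2a1, Slc3a2 and Slc7a11), which left 333. A name counted as detected if all 3 arrays of 1 or more groups had a probe flagged well above background, which held for 182 of the 333. The whole series held 17596 genes by the same filter. The brightest passing probe stood for its gene. The rule used detection, not a difference between groups.

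RAW264.7 cells were incubated for 24 h in medium holding 0.5% BSA from which fatty acids had been removed. The control group received nothing further. The FABP4 group received 200 nM recombinant FABP4, the palmitic acid group 0.2 mM palmitic acid, and the last group both. FABP4, the aP2 of the labels, is a lipid chaperone that adipocytes release and macrophages also make. Palmitic acid is a saturated fatty acid abundant in diet and plasma. Each group had 3 arrays, 12 in all, and all groups came from 1 cell line. Nothing in the labels tells whether replicate arrays stand for separate cultures, so the p-values cover only the spread between these samples, and that spread may be technical.

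Solute carriers are membrane proteins that move small molecules across the plasma membrane and the membranes of mitochondria, lysosomes and other organelles. They are grouped into families by sequence, and most families carry one kind of cargo, such as amino acids, monocarboxylates, metals, ions, sugars or nucleosides. Macrophages are known to use them to export lactate, to take up amino acids for arginine and glutathione metabolism, to withhold metals from microbes in the phagosome and to recycle what lysosomes digest.

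Between 42.8% and 46.7% of the non-control spots of an array were well above background, and 95.6% to 98.9% of the 182 carriers were. The carriers were chosen by this same flag, so their share was high by the rule. No carrier was saturated on any array. Of the 9 macrophage markers on the array 8 were detected (Cd68, Csf1r, Cd14, Lyz2, Itgam, Ptprc, Fcgr1 and Emr1, but not Mertk), whereas 0 of 4 adipocyte, 0 of 4 epithelial and 0 of 3 B cell markers were. One marker each of T cells (Cd3e), endothelium (Kdr) and fibroblasts (Col1a2) and 3 of 4 of osteoclasts were detected, the last without Calcr. Of these, Ctsk was called with palmitic acid, at group means of 1930 in controls and 2410 with palmitic acid, and of 2020 with FABP4 and 2580 with both (limma adjusted p = 0.0298 and 0.0284). Of the 8 macrophage markers, Cd68 was called higher in both palmitic acid comparisons (44900 to 53800 without FABP4 and 44300 to 56300 with it, limma adjusted p = 0.0196 and 0.00906). Csf1r was called higher with FABP4 (22800 to 27300, limma adjusted p = 0.0208), Itgam was called lower without it (5980 to 4730, limma adjusted p = 0.0104), and the other 5 were called in neither. The part of these markers and of Ctsk in the carrier results was not tested. By the slides that the file headers give, the 3 controls lay on slide 1 together with FABP4 array 1, while FABP4 arrays 2 and 3 shared slide 2 with the 6 arrays that had palmitic acid. Without FABP4, palmitic acid and slide therefore changed together, and they can be separated only through the FABP4 group, which spans both slides. By the same headers, FABP4 arrays 2 and 3 lay in row 1 of slide 2, and the 3 arrays with both agents in row 2. Within slide 2, palmitic acid with FABP4 and row therefore changed together. They could be separated only through the palmitic acid group, with arrays 1 and 2 in row 1 and array 3 in row 2. The part of row was not tested.

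The classes were detected to unequal extents. Over the whole array 17596 of 34797 gene names were detected, and of the carrier names 182 of 333. Metal carriers were detected for 26 of 33 names, nucleoside and nucleotide sugar carriers for 10 of 12 and mitochondrial carriers for 31 of 43. Amino acid and peptide carriers were detected for 31 of 65, inorganic ion and pH carriers for 28 of 54 and sugar and polyol carriers for 16 of 33. Carboxylate, vitamin and organic ion carriers, many of them known from kidney and liver, were detected for 30 of 75, and lipid precursor carriers for 4 of 10. The remaining 6 members were 5 genes named after a carrier without being one (such as Slc9a3r1, a scaffold protein) and Slc14a2, a urea carrier that no list held. Of the 182 members 171 were well above background on all 12 arrays. Another 7 passed through 1 group alone, 3 through 2 groups and 1 through 3, so these 11 tend to differ between groups by the way they were chosen. Just inside the filter were Slc10a7, Slc23a3 and Slc29a2, each above background on 5 arrays. Just outside it were Slc16a11 and Slc18a2, above background on 6 arrays but on no complete group, with highest scaled intensities of 41.9 and 43.5. Ferroportin (Slc40a1), the iron exporter of macrophages, was not detected either. It was above background on 3 arrays, and its highest value was 41.6.

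Scaled intensity is used throughout for the level of a probe. It is the processed signal divided by the 75th percentile of its array and multiplied by 273, the geometric mean of those percentiles, so that arrays can be compared. It does not allow the level of one probe to be set against that of another. Differences are log2 fold changes with their standard error from a limma fit to all genes. Calls required a p under 0.05 after Benjamini-Hochberg adjustment over all 17596 genes.

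A minority of the carriers were called between groups with and without palmitic acid, in both directions. The groups compared without FABP4 also differed in slide. Without FABP4, 22 of 182 were called, 10 higher and 12 lower, which is 12.1% against a background of 8.61% of all genes tested (4.88% higher and 3.73% lower). With FABP4 present 9 were called, 7 higher and 2 lower, 4.95% against 3.81% (2.86% higher and 0.943% lower). The shares of carriers lay near those backgrounds. The median log2 fold change of the carriers was 0.00 without FABP4 and 0.04 with it, against 0.00 and 0.05 over all genes. No carrier was called for FABP4 itself. In bulk RNA, fewer cells of a kind and less RNA per cell cannot be told apart. Within the carriers the 30 carboxylate, vitamin and organic ion carriers had 9 calls without FABP4 (5 higher, 4 lower), the 31 amino acid and peptide carriers had 4 (3 higher, 1 lower), the 28 ion carriers had 3 (1 higher, 2 lower), and the 26 metal carriers had 2 (1 in each direction). The 31 mitochondrial carriers had 2, both lower. The median of each of these 5 classes lay between 0.00 and 0.05.

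**Figure D1:**
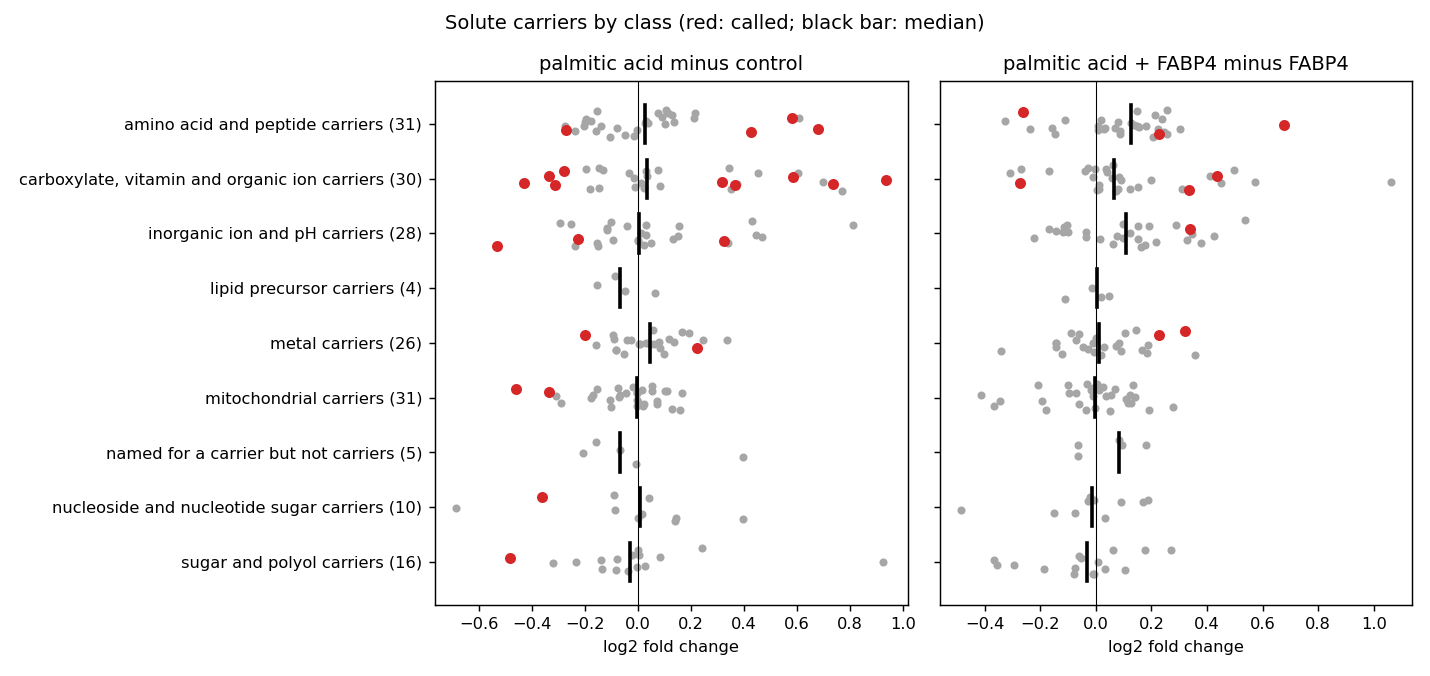
Log2 fold changes of the carriers by class for palmitic acid without FABP4 (left) and with it (right). Each point is 1 gene, red points are called, black bars are class medians, and the number of genes tested is in brackets. Called genes lie on both sides of 0 without FABP4, with 10 higher and 12 lower.

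A set of 6 carriers was called with and without FABP4, all in the same direction: Slc6a8, Slc16a3, Slc16a10 and Slc26a11 were higher with palmitic acid, and Slc16a6 and Slc7a7 were lower. They are 27.3% of the 22 called without FABP4 and 66.7% of the 9 called with it. Over all genes the 456 shared calls are 30.1% and 68.1%. These comparisons share no array, so their fold changes come from separate arrays. The fit, however, took the spread of each gene from all 4 groups, so the calls are not independent. A gene with a small spread is more easily called in both. With only the groups compared in the fit, 1 of the 9 calls with FABP4 remained. Without FABP4 there were then 17 calls, 14 of them among the 22. Such a fit also has fewer arrays, so the part of the common spread in the shared calls was not tested. Where groups of a called carrier are given below as not overlapping, this follows in large part from the call on these same arrays. Of the 22, 19 (86.4%) had the same sign in both, against 92.1% of the 1515 genes called without FABP4.

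**Figure D2:**
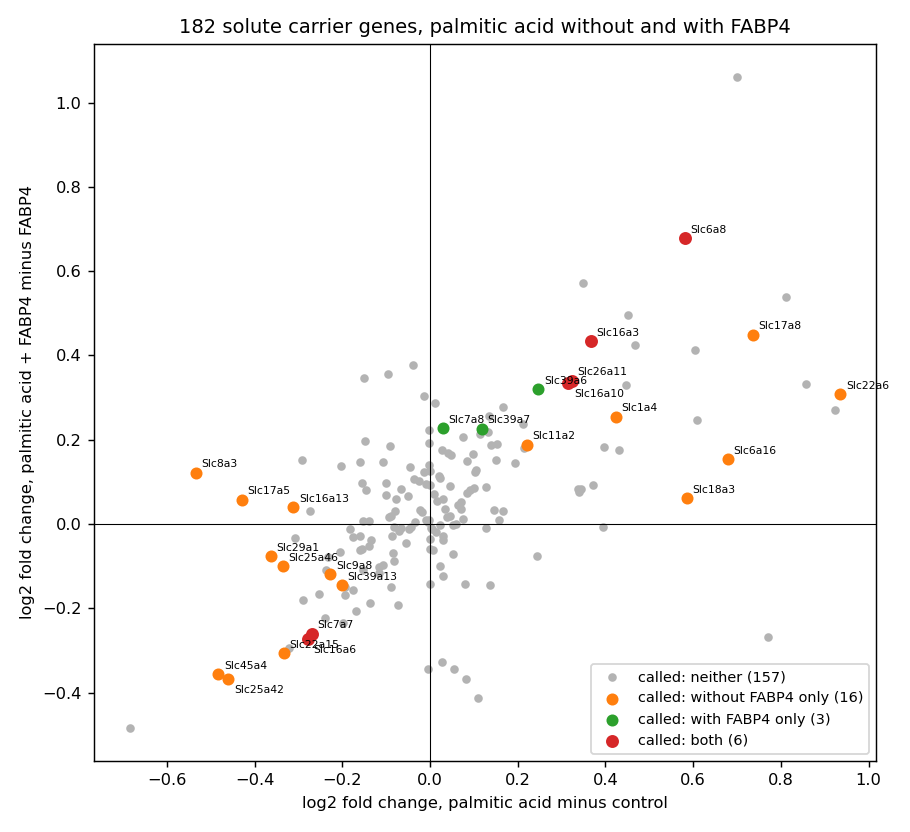
Log2 fold change of each of the 182 carriers with palmitic acid in the absence (x axis) and presence (y axis) of FABP4. Colours mark in which comparison a gene was called: 157 in neither, 16 without FABP4, 3 with FABP4 and 6 in both, and those 6 have the same sign on both axes.

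Among the amino acid and related carriers, Slc6a8, the creatine transporter, rose most firmly. Its scaled intensity was 668, 582 and 656 on the control arrays and 981, 959 and 908 on the palmitic acid arrays. With FABP4 it was 640, 584 and 627, and with both 944, 966 and 1054. All 6 palmitic acid arrays lay above all 6 others. The log2 fold change was 0.58 ± 0.07 (SE, n = 3 arrays a group) without FABP4, limma adjusted p = 0.00159, and 0.68 ± 0.07 with FABP4, limma adjusted p = 0.000735. Its call held whichever array was left out, in both comparisons. After fitting slide as a fixed block, the change without FABP4 was 0.66 ± 0.12 and missed the threshold (limma adjusted p = 0.0523), while with FABP4 it was 0.71 ± 0.08 (limma adjusted p = 0.00218). That blocked value rests on the 5 slide 2 arrays of the last 2 groups, and a fit to the slide 2 arrays alone returns the same fold by construction, with limma adjusted p = 0.00793. On those 5 arrays the row of the slide changed together with palmitic acid. The probe lies at chrX:70927775-70927834 on the plus strand of mouse build mm9.

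Slc7a7, known as y+LAT1, exchanges cationic for neutral amino acids together with the heavy chain Slc3a2. It was 5265, 5607 and 5851 on the control arrays and 4414, 4636 and 4813 with palmitic acid. On the FABP4 arrays it was 6097, 5931 and 5679, and with both 4937, 4873 and 4963. Each palmitic acid array was below every array of the other 2 groups. It fell by 0.27 ± 0.05 without FABP4 (limma adjusted p = 0.0155) and by 0.26 ± 0.05 with it (limma adjusted p = 0.0284) on the log2 scale. Slc7a8, known as LAT2, is a related exchanger of neutral amino acids. With FABP4 it was 975, 906 and 927, and with both 1079, 1110 and 1098, without overlap. It rose by 0.23 ± 0.05 (limma adjusted p = 0.0373). Without FABP4 its values overlapped (995, 1016 and 1001 against 964, 1036 and 1074), and the change was 0.03 ± 0.05. The difference of its changes was not called (0.20 ± 0.07, limma adjusted p = 0.68).

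Slc1a4, known as ASCT1, carries alanine, serine and cysteine. It was 9696, 10801 and 9673 on the control arrays and 13817, 12630 and 14039 with palmitic acid, without overlap, a rise of 0.42 ± 0.06 (limma adjusted p = 0.00536). With FABP4 the change was 0.25 ± 0.06 and missed the threshold (limma adjusted p = 0.0601), although the groups did not overlap there either (10878, 11705 and 10735 against 13032, 12930 and 13758). Slc6a16 is an orphan of the neurotransmitter carrier family. It was 91.9, 91.5 and 92.2 on the control arrays against 118, 174 and 155 with palmitic acid, a rise of 0.68 ± 0.13 (limma adjusted p = 0.0107). The FABP4 arrays were high as well, at 127, 135 and 145, and the arrays with both at 166, 145 and 141. The change with FABP4 present was 0.15 ± 0.13. Slc1a4 and Slc6a16 kept their calls without FABP4 whichever array was left out, and lost them with the slide as a fixed block (0.38 ± 0.12 and 0.54 ± 0.23, limma adjusted p = 0.17 and 0.313).

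Among the carboxylate carriers, Slc16a3, known as MCT4, exports lactate from cells with high glycolysis. It was 12687, 12157 and 13657 on the control arrays and 15498, 17071 and 17044 with palmitic acid. The FABP4 arrays gave 12222, 12249 and 14032, and those with both agents 18430, 16938 and 16593. The palmitic acid arrays were all above the others. The rise was 0.37 ± 0.08 without FABP4 (limma adjusted p = 0.0169) and 0.43 ± 0.08 with it (limma adjusted p = 0.0124). Its other detected probe rose alike, by 0.33 and 0.46. After fitting slide as a fixed block, the change without FABP4 was 0.26 ± 0.13 (limma adjusted p = 0.401), and with FABP4 it was 0.40 ± 0.08 (limma adjusted p = 0.035).

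Slc16a10, known as TAT1, carries aromatic amino acids although it belongs to the monocarboxylate family. It was 1211, 1084 and 1129 on the control arrays and 1564, 1339 and 1364 with palmitic acid. With FABP4 it was 1163, 1140 and 1100, and with both 1443, 1448 and 1401, so that the arrays with and without palmitic acid did not overlap. The rise was 0.32 ± 0.07 (limma adjusted p = 0.019) without FABP4 and 0.33 ± 0.07 (limma adjusted p = 0.0234) with it. Its other detected probe, between 23.7 and 46.01 on all arrays and so near background, gave -0.14 and 0.31 with unadjusted p-values of 0.57 and 0.237. Slc16a6, another member of the family, is linked to ketone body export from liver. It was 1846, 1957 and 2030 on the control arrays and 1506, 1625 and 1682 with palmitic acid. FABP4 arrays gave 2135, 2058 and 1988, and with both 1711, 1715 and 1688. It fell by 0.28 ± 0.06 (limma adjusted p = 0.0159) and by 0.27 ± 0.06 (limma adjusted p = 0.0272), without overlap in either comparison. Slc16a13 fell by 0.31 ± 0.08 without FABP4 (limma adjusted p = 0.0412), its other detected probe did not follow (0.03), and with FABP4 it stood at 0.04 ± 0.08.

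The promoters of 3 of the 6 carriers called in both comparisons, those the RefSeq promoter table of build GRCm38.p6 holds, are shown because these genes were called in both comparisons, Slc16a3 and Slc16a10 higher and Slc7a7 lower. Slc6a8, Slc26a11 and Slc16a6 had no entry there. Each line gives the 250 bases upstream of the farthest upstream start, with the matches of 5 short motifs in capitals. Positions are chr11:120948817-120949066 on the plus strand for Slc16a3, chr10:40142255-40142504 on the minus strand for Slc16a10 and chr14:54417945-54418194 on the minus strand for Slc7a7.
Slc16a3: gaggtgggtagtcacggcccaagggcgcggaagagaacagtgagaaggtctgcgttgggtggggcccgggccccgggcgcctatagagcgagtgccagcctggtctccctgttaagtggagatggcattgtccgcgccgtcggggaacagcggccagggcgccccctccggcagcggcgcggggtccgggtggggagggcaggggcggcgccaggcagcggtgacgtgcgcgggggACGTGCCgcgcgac
Slc16a10: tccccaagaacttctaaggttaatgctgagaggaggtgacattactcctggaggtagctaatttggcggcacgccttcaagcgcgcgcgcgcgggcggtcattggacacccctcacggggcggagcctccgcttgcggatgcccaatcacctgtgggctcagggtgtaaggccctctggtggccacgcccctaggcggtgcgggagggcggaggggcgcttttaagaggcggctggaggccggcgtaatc
Slc7a7: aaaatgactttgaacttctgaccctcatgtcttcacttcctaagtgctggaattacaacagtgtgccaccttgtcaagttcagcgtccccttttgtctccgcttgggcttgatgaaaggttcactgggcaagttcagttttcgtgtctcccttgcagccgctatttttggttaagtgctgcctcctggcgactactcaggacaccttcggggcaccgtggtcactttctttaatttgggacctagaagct
The motifs were searched on both strands: TTGCATCA (amino acid response element), TGCGCNC and TGCACNC (metal response elements), ACGTGNC (hypoxia response element) and CACGTG (E-box), where ACGTGNC and CACGTG can overlap. The capitals in Slc16a3 are a match to ACGTGNC, and the windows printed for Slc16a10 and Slc7a7 hold none of the 5. A further Slc7a7 promoter in the table, at chr14:54417703-54417952 and not printed, holds TTGCATCA, the amino acid response element. It is 1 of 7 promoters, which come from these 3 carriers alone and mostly from Slc7a7. ACGTGNC lay in 6.43% of the 32851 promoters of the table and in 12.2% of the 188 promoters of the 139 carriers that it holds. For TTGCATCA the shares were 0.791% and 1.06%, and for CACGTG 6.02% and 12.8%. For TGCGCNC they were 12.5% and 14.9%, and for TGCACNC 10.4% and 12.2%. A match is a description of the letters in the window.

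Slc26a11, a sulfate and chloride carrier, is the ion carrier called in both comparisons. It was 164, 148 and 171 on the control arrays and 205, 199 and 199.5 with palmitic acid. In the presence of FABP4 it was 171, 159 and 148, and with both 195, 198 and 211, again without overlap. The rise was 0.32 ± 0.07 (limma adjusted p = 0.0194) and 0.34 ± 0.07 (limma adjusted p = 0.0252). On the slide 2 arrays alone, which leave out FABP4 array 1, the rise with FABP4 was 0.39 (limma adjusted p = 0.0329), the same contrast as in the blocked fit. The other mm9 probe positions of the 6 carriers are chr11:120820030-120820089 (Slc16a3, plus strand), chr10:39756480-39756539 (Slc16a10, minus), chr11:119242219-119242278 (Slc26a11, plus), chr11:109314056-109314115 (Slc16a6, minus) and chr14:54989166-54989225 (Slc7a7, minus). Their place in exons or UTRs was not analysed here.

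**Figure D3:**
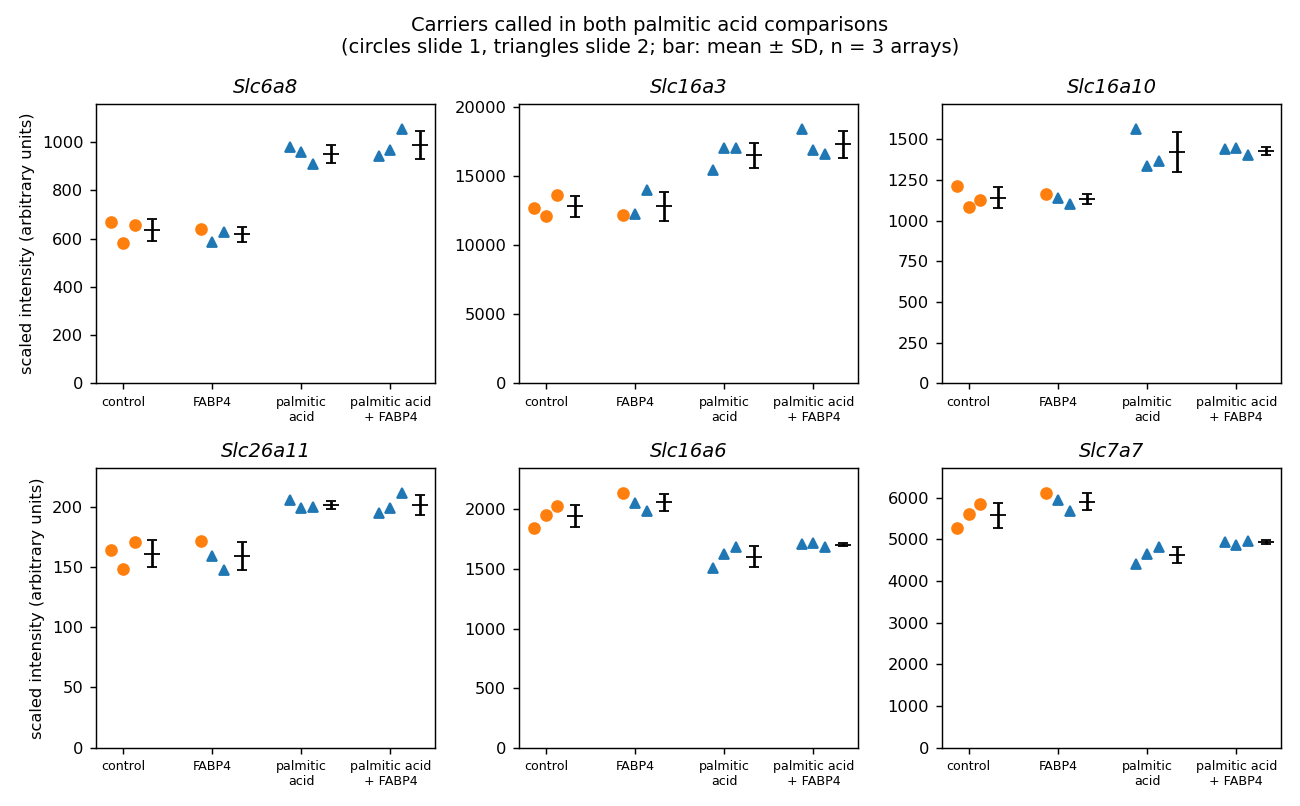
Scaled intensity of the 6 carriers called in both palmitic acid comparisons, on every array. Circles are slide 1, triangles slide 2, and black bars give the mean and SD of the 3 arrays of a group. In every panel the 6 palmitic acid arrays are separate from the 6 other arrays, which follows in large part from choosing carriers called on these same arrays.

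The other carboxylate and organic ion carriers called without FABP4 were not called with it. Slc17a5, known as sialin, exports sialic acid from lysosomes. It was 1456, 1421 and 1524 on the control arrays and 1003, 1137 and 1134 with palmitic acid, and fell by 0.43 ± 0.08 (limma adjusted p = 0.0114). Its other detected probe gave -0.14 with an unadjusted p of 0.126. With FABP4 it was 1251, 1182 and 1436, and with both 1262, 1372 and 1381, which overlap. Its call without FABP4 held whichever array was left out and was lost with the slide block (-0.49 ± 0.15, limma adjusted p = 0.165). Slc22a6 (OAT1), the organic anion carrier of kidney, rose from a dim level of 40.1, 40.98 and 47.7 to 82.5, 74.2 and 89.7, by 0.94 ± 0.19 (limma adjusted p = 0.0168). FABP4 array 1, on slide 1, stood at 40.3 and FABP4 arrays 2 and 3, on slide 2, at 66.9 and 70.5. After fitting slide as a fixed block, the change was 0.17 ± 0.19 (limma adjusted p = 0.745).

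Slc17a8, a vesicular glutamate carrier, rose by 0.74 ± 0.20 (limma adjusted p = 0.0484), from 42.3, 45.4 and 34.4 to 54.7, 72.7 and 76.9. Slc18a3, the vesicular acetylcholine carrier, rose by 0.59 ± 0.14 (limma adjusted p = 0.0326), from 69.8, 90.4 and 63.8 to 106, 122 and 105. Both are known from neurons and were dim here, and normexp background correction ended both calls (limma adjusted p = 0.173 and 0.0552). Slc22a15 fell by 0.33 ± 0.09 (limma adjusted p = 0.0451), from 161, 154 and 182 to 131, 125 and 138.

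Of the other ion carriers, Slc8a3, a sodium and calcium exchanger, fell by 0.53 ± 0.11 without FABP4 (limma adjusted p = 0.0202). It was 599.9, 591 and 715 on the control arrays and 449, 449 and 415 with palmitic acid. Its other detected probe gave 0.35 with an unadjusted p of 0.251, and the mean of both probes gave -0.09 (limma adjusted p = 0.734). Slc9a8, a sodium and proton exchanger of endosomes and the Golgi, fell by 0.23 ± 0.05 (limma adjusted p = 0.0159) on 1 probe, while the other gave 0.06. The naming rule does not hold Slc9a8 or Slc39a13, which were named after their values were seen so that every called carrier has its name.

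Of the 26 metal carriers 2 were called in each comparison (7.69%, against backgrounds of 8.61% without FABP4 and 3.81% with it). Slc11a2, known as DMT1, brings ferrous iron into the cytosol from outside the cell and from endosomes. It was 3376, 3220 and 3500 on the control arrays and 3826, 3951 and 3986 with palmitic acid, without overlap, a rise of 0.22 ± 0.05 (limma adjusted p = 0.0271). Its other detected probe gave 0.20. With FABP4 the change was 0.19 ± 0.05 (limma adjusted p = 0.0753). Of the zinc carriers, Slc39a6 and Slc39a7 rose with FABP4 present, and Slc39a7 is known to release zinc from the endoplasmic reticulum. Slc39a6 went from 2600, 2311 and 2295 to 2859, 3039 and 3087, by 0.32 ± 0.07 (limma adjusted p = 0.0319), and Slc39a7 from 26736, 24962 and 27011 to 30277, 31268 and 30438, by 0.23 ± 0.05 (limma adjusted p = 0.0363). Without FABP4 they stood at 0.25 ± 0.07 (limma adjusted p = 0.0509) and 0.12 ± 0.05 (limma adjusted p = 0.162). Slc39a13, another zinc carrier, fell by 0.20 ± 0.05 without FABP4 (limma adjusted p = 0.044).

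The 2 mitochondrial carriers called without FABP4 were lower. Slc25a42, which brings coenzyme A into mitochondria, was 94.6, 86.0 and 90.8 on the control arrays and 67.9, 67.4 and 62.0 with palmitic acid, and fell by 0.46 ± 0.11 (limma adjusted p = 0.0282). Slc25a46, an outer membrane protein known for its part in mitochondrial shape, fell by 0.34 ± 0.08 (limma adjusted p = 0.0286), from 1265, 1190 and 1189 to 1038, 878 and 977. With FABP4 they stood at -0.37 ± 0.11 (limma adjusted p = 0.0943) and -0.10 ± 0.08 (limma adjusted p = 0.486). The median of the 31 mitochondrial carriers was 0.00 in both comparisons.

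Slc29a1, known as ENT1, equilibrates nucleosides across the plasma membrane. It fell by 0.36 ± 0.09 without FABP4 (limma adjusted p = 0.0352), from 696, 662 and 671 to 480.0, 546 and 555, and stood at -0.08 ± 0.09 with FABP4. After fitting slide as a fixed block, the change without FABP4 was -0.09 ± 0.13 (limma adjusted p = 0.792). Slc45a4, of the sugar carrier class, was 259, 227 and 225 on the control arrays and 173, 163 and 172 with palmitic acid. It fell by 0.48 ± 0.09 (limma adjusted p = 0.0126) without FABP4, and with FABP4 the change was -0.36 ± 0.09 (limma adjusted p = 0.0644). None of the 4 lipid precursor carriers was called, and their changes lay between -0.15 and 0.06 without FABP4 and between -0.11 and 0.05 with it (unadjusted p under 0.05: 0 in either comparison).

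Carriers with a known part in macrophages were listed whatever their test, and 23 of 24 were detected. Without FABP4 2 of the 23 were called, Slc16a3 and Slc11a2, and with FABP4 1, Slc16a3, which are shares near the backgrounds of 8.61% and 3.81% of all genes. Slc11a1, known as NRAMP1, which moves metals out of the phagosome, was between 12406.5 and 14425 on all 12 arrays, and its changes were 0.08 ± 0.06 and 0.07 ± 0.06. The lysosomal histidine and peptide carriers Slc15a3 and Slc15a4 stood at 0.11 ± 0.08 and 0.09 ± 0.06 without FABP4. Slc7a1, the main cationic amino acid carrier, stood at -0.05 ± 0.06, and Slc1a5, a glutamine carrier, at -0.14 ± 0.07. Slc16a1, known as MCT1, stood at 0.03 ± 0.11 and Slc2a3, a glucose carrier, at 0.00 ± 0.08.

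Some of these carriers came near the threshold without FABP4. Slc7a5, known as LAT1, which takes up leucine and other large neutral amino acids, was 1957, 1774 and 1923 on the control arrays and 1491, 1586 and 1721 with palmitic acid. Its change was -0.24 ± 0.07 (limma adjusted p = 0.0511). Slc48a1, a heme carrier of the phagolysosome, was 1001, 1028 and 966 against 863, 904 and 915, with -0.16 ± 0.04 (limma adjusted p = 0.0503). On the slide 2 arrays alone, the changes with FABP4 present were -0.08 ± 0.07 for Slc7a5 and -0.03 ± 0.05 for Slc48a1 (limma adjusted p = 0.578 and 0.765). Slc38a9, the lysosomal arginine sensor of the mTORC1 pathway, stood at -0.20 ± 0.06 (limma adjusted p = 0.0653) and, with FABP4, at -0.24 ± 0.06 (limma adjusted p = 0.0601). Its change with FABP4 on the slide 2 arrays alone was -0.24 ± 0.08 (limma adjusted p = 0.174).

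**Figure D4:**
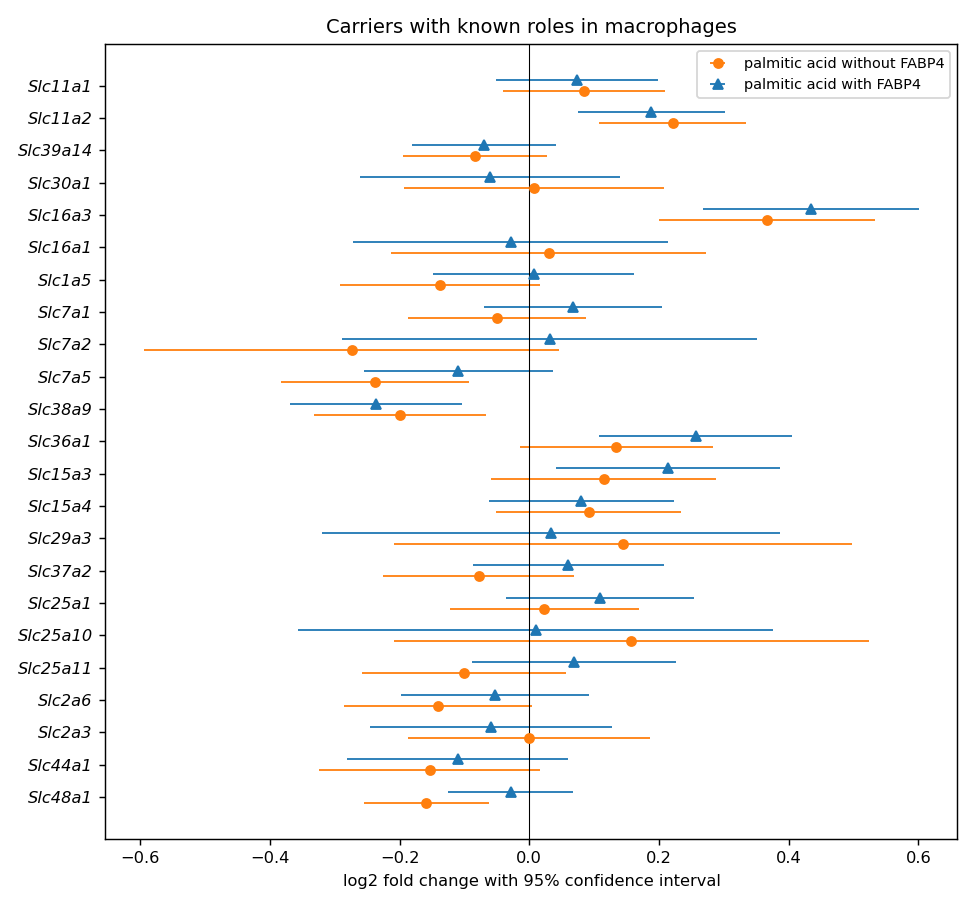
Log2 fold change with its 95% confidence interval for the 23 detected carriers with a known part in macrophages, for palmitic acid without FABP4 (circles) and with it (triangles). Slc16a3 has the highest value in both comparisons, 0.37 and 0.43, and most intervals include 0.

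FABP4 gave no called carrier, either without palmitic acid (background 0.017% of all genes, 0.0114% higher and 0.00568% lower, by limma) or with it (background 0%). Without palmitic acid the groups also differed in part by slide, with the controls on slide 1 and FABP4 arrays 2 and 3 on slide 2. At an unadjusted p under 0.05 there were 12 and 10 of 182 carriers. The 95% confidence interval of the change lay within 2-fold in both directions for 175 and 178 of the 182. The smallest unadjusted p without palmitic acid belonged to Slc6a16, at 0.56 ± 0.13 (limma adjusted p = 0.402). Slc8a3 followed at -0.41 ± 0.11 and Slc24a6, a mitochondrial sodium and calcium exchanger now named Slc8b1, at -0.41 ± 0.12 (limma adjusted p = 0.491 and 0.548). With palmitic acid, Slc48a1 was 863, 904 and 915 without FABP4 and 1001, 1040 and 1014 with it, without overlap, at 0.19 ± 0.04 (limma adjusted p = 0.806). Slc17a5 stood at 0.30 ± 0.08 and Slc43a3, a purine base carrier, at 0.20 ± 0.06 (limma adjusted p = 0.806 for both).

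Whether the effect of palmitic acid differed with FABP4 was tested as an interaction, and no carrier was called (background 0%, limma, 14 of 182 at an unadjusted p under 0.05). Slide does not cancel in this contrast, because the controls lay on slide 1 and the FABP4 group on both slides. The 4 smallest p-values belonged to Slc17a5 (0.49 ± 0.11), Slc8a3 (0.65 ± 0.16), Slc43a3 (0.31 ± 0.09) and Slc16a13 (0.35 ± 0.11), with limma adjusted p-values of 0.584, 0.584, 0.634 and 0.65. Each of them was lower with palmitic acid without FABP4 (Slc43a3 at -0.16 ± 0.06, not called) and stood above 0 with FABP4. Thus carriers called in only 1 of the palmitic acid comparisons are not shown to differ between them.

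Once slide entered the fit as a fixed block, 0 of the 22 calls without FABP4 remained and all 22 kept their sign. The slide effect in this fit comes from FABP4 array 1 against FABP4 arrays 2 and 3 alone, so the blocked values carry what is particular to that array, which departed by over 0.5 on the log2 scale from the other 2 for 10.1% of all genes. The median size was 0.82 of that without the block, and the median standard error was 1.75 times as large. With the slide as a random block Slc6a8 alone remained (limma adjusted p = 0.0176). Of the 9 calls with FABP4, 7 remained with the fixed block and 9 with the random block. Slc16a6 and Slc7a7 were lost with the fixed block (-0.25 ± 0.06 and -0.24 ± 0.06, limma adjusted p = 0.0623 and 0.0635). The calls that remained were 2 (Slc6a8 and Slc26a11) on the slide 2 arrays alone. The fixed block called 3 carriers without FABP4 that the unblocked fit did not, Slc45a3, Slc30a5 and Slc38a2. For Slc45a3 FABP4 array 1 stood at 6214 and the other 11 arrays between 2142 and 2593, and a second probe read 171 on that array and between 165 and 190 on the other control and FABP4 arrays. For Slc30a5 that array read 592 and the others 859 to 1071. FABP4 array 1 differed by over 0.5 on the log2 scale from the other 2 of its group for 14 of 182 carriers, and the other arrays for 3 to 9. Its part in these calls was not tested.

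**Figure D5:**
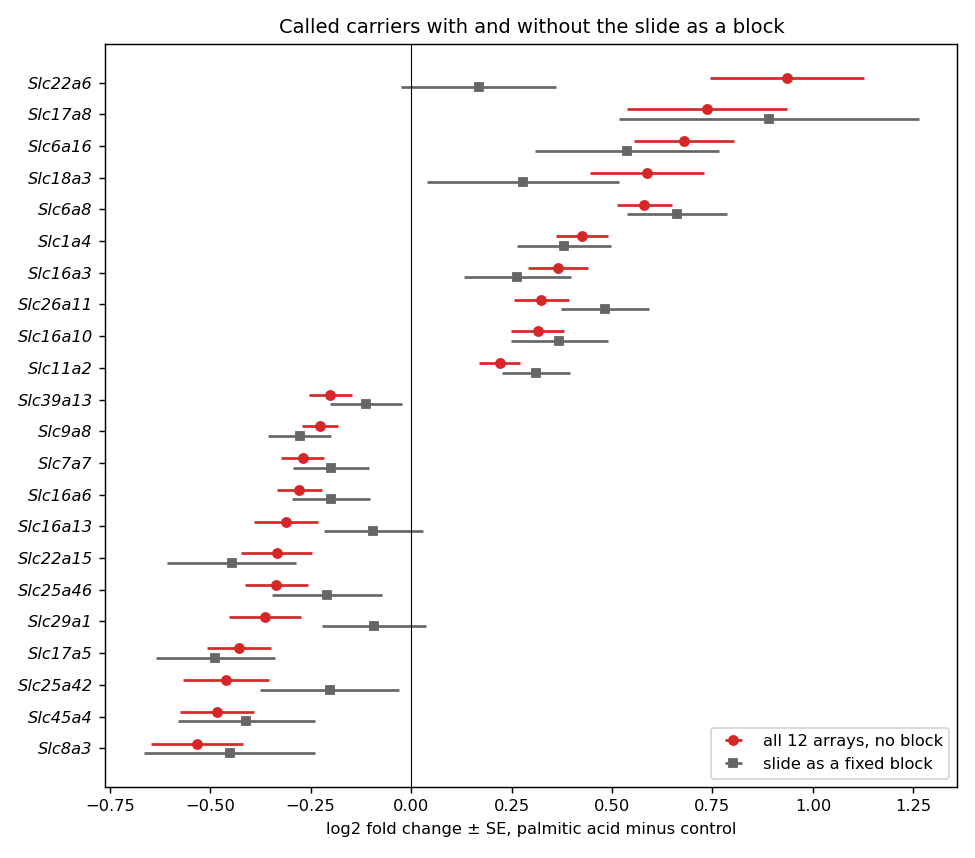
Log2 fold change with its SE for the 22 carriers called with palmitic acid without FABP4, from the fit without a block (circles) and with the slide as a fixed block (squares). All 22 keep their sign, and the bars are wider with the block, by a median of 1.75 times.

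Leaving out arrays in turn removed some of these calls. Of the 20 carriers named by rule among the 22 called without FABP4, 4 (Slc6a16, Slc6a8, Slc1a4 and Slc17a5) were called whichever array was left out. Leaving out control array 1, 2 or 3 ended 12, 9 and 11 of the 20 calls, and palmitic acid array 1, 2 or 3 ended 6, 11 and 12. Of the 9 with FABP4, Slc6a8 alone was called whichever array was left out, and leaving out array 1, 2 or 3 with both agents ended 8, 7 and 7 of the 9 calls. Leaving out FABP4 array 1, 2 or 3 ended 2, 8 and 5 of them. The highest limma adjusted p among these was 0.153 without FABP4 and 0.131 with it.

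The pathway neighbours of the carriers were listed as well. Of 28 ABC transporters, the other large group of transporters, 1 was higher and 4 were lower without FABP4, and 3 were lower with it, where 8.61% and 3.81% of all genes were called. Abca1 and Abcg1, which export cholesterol, and Abcc4 were lower in both comparisons, Abca1 by 0.98 ± 0.08 and 0.83 ± 0.08 (limma adjusted p = 0.000157 and 0.000535). Each of the other lists had at most 1 call in a comparison. Of 29 carriers whose names miss the pattern (3.45% called in each comparison), Slco3a1 rose without FABP4 (0.61 ± 0.13, limma adjusted p = 0.0185) and Slco4a1 with it (0.32 ± 0.06, limma adjusted p = 0.024). Of 15 genes of trace metal handling, Ftl1, the ferritin light chain, rose with FABP4 (6.67% called, 0.26 ± 0.06, limma adjusted p = 0.0489) and none was called without it (limma, 2 at an unadjusted p under 0.05). Of 17 genes of amino acid sensing (5.88% called in each comparison), Rragc rose without FABP4 (0.25 ± 0.06, limma adjusted p = 0.0265) and Atf4, the transcription factor of the amino acid response, with it (0.22 ± 0.05, limma adjusted p = 0.048).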

How the data were processed

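Per the labels, total RNA from an RNeasy kit was turned into Cy3-marked cRNA for Agilent arrays of 1 colour. Per the file headers, Agilent Feature Extraction 10.7.3.1 gave the deposited processed intensity, background-subtracted on a linear scale and not scaled between arrays. The authors' deposited value table equals it within 0.005.

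Control and outlier spots were left out, spots of a probe averaged, and log2 of the intensity minus each array's 75th percentile was fitted with limma 3.58.1 (lmFit, eBayes, two-sided, 4 group means, 12 arrays, R 4.3.3), after a test on simulated data. Calls were made at a Benjamini-Hochberg adjusted p under 0.05 over 17596 genes. Figures used matplotlib 3.10.9. Of the members 177 were matched to the reference by accession and 5 by symbol, and mm9 probe positions come from the files.

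The members and lists were chosen with earlier results of these data known. The rule names, per comparison, the 8 largest called rises and falls, the 4 smallest interaction p-values, and 24 macrophage carriers. Alternatives were scaling, normexp, the deposited table, filters, probe choice, slide, replicate block, samples fitted, moderation and leaving out arrays. With so few arrays precision is limited, and a member's log2 fold change had a median SE of 0.08.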

Additional observations from a re-analysis of the deposited data

How the results depend on the processing

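Without FABP4 the 22 calls with palmitic acid became 4 with no filter on dim probes, 3 with the slide as a fixed block and 1 with it as a random block, and 9 to 36 with an array left out (control arrays 1, 2 and 3: 9, 14 and 9; FABP4 array 1: 36; palmitic acid arrays 2 and 3: 11 each). With FABP4 the 9 calls became 1 with no scaling, 15 with normexp, 1 with no filter, 4 on slide 2 alone, 1 with only the groups compared and 16 with trended and robust moderation, and 1 to 11 with an array left out (FABP4 array 2: 2; the arrays with both agents: 1, 2 and 2). For FABP4 without palmitic acid and for the interaction the 0 calls became 2 each with the slide as a fixed block, Slc45a3 and Slc30a5. The cause of these changes was not tested.

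The split by direction moved with the scaling. Without FABP4, no scaling gave 30 higher and 1 lower, where the median of all genes was 0.17. With FABP4, scaling on probes detected on all arrays gave 7 higher and 6 lower, quantile normalization 6 and 4, and normexp 13 and 2. No named value changed sign after being called. With the replicate number as a block there were 17 calls without FABP4, 16 of them shared, and 3 with FABP4. The numbers gave no sign of pairing: over 18 same-numbered pairs the correlation of deviations was between -0.08 and 0.17, over 0.1 in 1. Over 36 differently numbered pairs it was between -0.17 and 0.16, over 0.1 in 3. With 3 arrays a group these values cannot exclude a pairing.

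Of the named values under alternatives, 3144 kept their side of the threshold, 242 lost and 36 gained a call, and 138 without a call moved by more than 1 SD between replicates. The number of arrays, 3 a group, and signals near background for dim members limit what can be seen.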

Other observations

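The second detected probe of Slc45a3, a sugar carrier known from prostate, gave 174, 169 and 168 on the control arrays and 244, 220 and 226 with palmitic acid, and 171, 165 and 190 with FABP4 against 245, 267 and 218 with both. The 6 palmitic acid arrays did not overlap with the other 6. In a limma fit of all probes it rose by 0.43 ± 0.08 without FABP4 and 0.47 ± 0.08 with it (limma adjusted p = 0.0142 and 0.0154), while the brightest probe, which stood for the gene, gave 0.08 ± 0.31 and -0.37 ± 0.31. It was chosen after its values were seen.

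Where a carrier was above background on no array of a group, its change is a bound. Slc23a3 passed the detection filter only through the group with both agents and Slc29a2 only through the FABP4 group, so their values are a description and support nothing. Slc23a3, a member of the vitamin C carrier family, was at least 1.72-fold higher with both agents than with FABP4 (limma adjusted p = 0.078), and Slc29a2, a nucleoside carrier, at least 1.57-fold higher in controls than with palmitic acid, measured on 2 of 3 control arrays (limma adjusted p = 0.0723).

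Single arrays departed for other carriers. Slc35a5 stood at 137 on palmitic acid array 1, 1.98 above the mean of the other 2 on the log2 scale, Slc5a10 at 284 on the same array (1.57), and Slc25a44 at 724 on FABP4 array 3 (1.52).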
